A study of Mus musculus with 6 samples.

Results

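The 34 genes described here are Myc, the transcription factor that drives growth programmes, and 33 genes that are widely counted among its targets. They comprise 31 factors that build ribosomes and 2 enzymes of polyamine synthesis. They were taken by symbol from a named list that was drawn up with earlier results of these data known, and all 34 were found once each among the 32285 genes of the deposited matrices. The data are droplet single-cell RNA profiles of sorted Lin- cKit+ Sca1+ (LSK) bone marrow cells, the compartment of hematopoietic stem and progenitor cells (HSPCs). The hosts of both groups were healthy, unconditioned C57BL/6J mice of the CD45.1 allele, aged 8 to 12 weeks. They were injected with PBS (3 libraries) or with 1000000 cells of C1498, a murine acute myeloid leukemia (AML) line of the CD45.2 allele (3 libraries), and were sacrificed at day 21, and the cells sorted were those of the hosts' allele, CD45.1. C1498 is 1 transplanted line.

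Ribosomes are assembled in the nucleolus, where RNA polymerase I transcribes the ribosomal RNA precursor. Small nucleolar ribonucleoproteins (snoRNPs) modify this precursor, and processing factors and helicases cut and fold it into the small and the large subunit. Many genes of these steps carry the E-box CACGTG, which Myc binds with its partner Max, and ribosome production rises when cells enter the cycle and is low in quiescent stem cells.

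The deposited cell table held 16822 cells of 5 libraries, with 6838, 934 and 4398 cells in PBS replicates 1, 2 and 3 and 693 and 3959 cells in AML replicates 1 and 3. No cell of AML replicate 2 is in it, so that AML comparisons rest on 3 against 2 libraries, and AML replicate 2 shared 1223 of the 1256 barcodes of PBS replicate 2. Of the kept barcodes, at most 12 were shared by any pair of libraries. AML replicate 1 stood apart: its median depth was 2393 UMIs a cell against 4015 to 9586 in the other 4 libraries, and 52.4% of its cells were called G2M against 18.3 to 24.2%. All 8 LSK markers examined, Kit and Ly6a (the gene of Sca1) among them, were detected in each library, at a summed level of 780.1 to 980.3 counts per 1000000 UMIs (CPM). Levels below are CPM of the UMIs summed over the cells of 1 library and part, so that a level is a share of the transcripts counted and not an amount per cell, and the counts are of 3′ ends, so that they are not divided by gene length.

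Matches to the E-box were found in the promoter windows of 5 of the 27 members that have an entry in the RefSeq promoter table (GRCm38.p6), or 18.5%, against 8.09% of the 27025 genes of that table. A window runs from 250 bases before to 50 bases after the annotated start. Srm, Npm1, Myc, Fbl, Tcof1, Bop1 and Rrp12 have no entry. Only in Nop2, a ribosomal RNA methyltransferase of the large subunit, did the match lie before the start, 60 bases upstream. Its 250 upstream bases are shown because they hold this match, on the plus strand of chr6:125131633-125131882, with the E-box in capitals.
Nop2: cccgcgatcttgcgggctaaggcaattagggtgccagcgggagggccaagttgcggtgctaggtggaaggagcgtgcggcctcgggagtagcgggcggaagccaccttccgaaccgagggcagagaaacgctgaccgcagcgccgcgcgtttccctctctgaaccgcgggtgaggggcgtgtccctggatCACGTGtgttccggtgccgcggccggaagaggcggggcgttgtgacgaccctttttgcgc
The other 4 matches lay after the annotated start, and 30 bases around each are shown in the direction of transcription, with the E-box again in capitals.
Pes1 (chr11:3963965-3963994, plus strand): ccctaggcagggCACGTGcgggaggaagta
Wdr43 (chr17:71616220-71616249, plus strand): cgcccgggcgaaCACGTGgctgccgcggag
Utp20 (chr10:88826765-88826794, minus strand): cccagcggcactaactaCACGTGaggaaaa
Mybbp1a (chr11:72441347-72441376, plus strand): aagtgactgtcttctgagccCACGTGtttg
CACGTG reads the same on both strands. The letters describe these windows only, and binding was not measured.

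The cell cycle was compared first, within the 3 PBS libraries, using the phase that the deposited cell table gives each cell. In S phase the members were higher almost throughout: 31 of 34 passed the test as higher than in G1 and 0 as lower, where 29.4% of all 12262 genes tested were higher and 26.1% lower. The median member was 0.60 higher on the log2 scale, against −0.018 for all genes. The summed level of the 34 genes was 3434 ± 324 CPM (SD, n = 3) in G1, 5181 ± 396 in S and 3735 ± 270.4 in G2M. Of the 31 genes called, all 31 were higher in S in each of the 3 libraries. Of the members only Polr1b is in the S phase or G2M gene lists that Seurat distributes for calling phases.

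The largest rise was that of Srm (spermidine synthase, chr4:148591503-148594993), 1 of the 2 polyamine genes. Srm had a CPM of 151, 122 and 127 in G1, 354, 308 and 306 in S and 169, 126 and 150.5 in G2M in PBS replicates 1, 2 and 3. Its S phase values were all above 300 CPM and its G1 and G2M values all below 170.0 CPM, and S exceeded G1 by 1.27 ± 0.05 (SE) on the log2 scale with adjusted p = 2.07e-17 (edgeR quasi-likelihood test with Benjamini-Hochberg adjustment over all genes, here and below). Odc1, ornithine decarboxylase, which makes the precursor of spermidine, differed by 0.45 ± 0.07 (SE) with adjusted p = 1.36e-05.

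All 7 snoRNP genes and nucleolar chaperones rose in S, by 0.70 to 1.10. Nop56, a core protein of the box C/D snoRNPs that guide ribosomal RNA methylation (chr2:130274430-130279313), had a CPM of 44.8, 48.9 and 39.7 in G1, 95.8, 99.7 and 88.5 in S and 65.2, 62.3 and 57.5 in G2M in PBS replicates 1, 2 and 3. Its partner Nop58 had a CPM of 152, 130.1 and 129.8 in G1, 268, 223 and 236 in S and 206, 170.1 and 179 in G2M in PBS replicates 1, 2 and 3. Npm1 (nucleophosmin, chr11:33152287-33163206), a nucleolar chaperone, had a CPM of 983, 1235 and 1041 in G1, 1786, 2250.0 and 1948 in S and 1447, 1637 and 1618 in G2M in PBS replicates 1, 2 and 3. In all 3 the S phase values lay above both other phases in each library, and the S rise was 1.10 ± 0.06 (SE) for Nop56, 0.82 ± 0.05 (SE) for Nop58 and 0.88 ± 0.04 (SE) for Npm1, with adjusted p of 2.7e-14, 4.07e-14 and 2.94e-15. Ncl (nucleolin), a chaperone of the ribosomal RNA precursor, had a CPM of 340.0, 296 and 296 in G1, 591, 556 and 553 in S and 406, 340.5 and 435 in G2M in PBS replicates 1, 2 and 3. Nolc1, which carries snoRNPs to the nucleolus, had a CPM of 45.3, 38.5 and 35.1 in G1, 90.2, 73.1 and 82.7 in S and 52.6, 30.8 and 42.8 in G2M in PBS replicates 1, 2 and 3. Fbl (fibrillarin), the methyltransferase of the box C/D particles, had a CPM of 117, 130.5 and 86.0 in G1, 193, 213 and 145 in S and 163, 147 and 114 in G2M in PBS replicates 1, 2 and 3. The S and G1 values of Ncl, Nolc1 and Fbl did not overlap, with rises of 0.87 ± 0.05 (SE), 1.06 ± 0.07 (SE) and 0.73 ± 0.05 (SE), though the S value of Fbl in PBS replicate 3 was below its G2M value in replicates 1 and 2. Dkc1, the pseudouridine synthase of the box H/ACA particles, rose by 0.70.

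Among the factors of the large subunit, 10 of 10 rose in S. Gnl3 (nucleostemin), a nucleolar GTPase, had a CPM of 144, 108 and 157 in G1, 239.8, 199.7 and 268 in S and 138, 90.8 and 154 in G2M in PBS replicates 1, 2 and 3. Rrp1b, a nucleolar processing factor, had a CPM of 38.2, 24.7 and 23.9 in G1, 79.4, 48.5 and 53.4 in S and 42.0, 25.4 and 35.5 in G2M in PBS replicates 1, 2 and 3. Both were highest in S in each library, by 0.78 ± 0.05 (SE) and 1.07 ± 0.08 (SE), with adjusted p of 1.73e-12 and 8.72e-12. The 3 genes of the PeBoW complex, which is needed for processing the precursor of the large subunit, rose by 0.29 (Pes1), 0.54 (Wdr12) and 0.63 (Bop1). The other rises of this group lay between 0.41 (Ppan) and 0.68 (Nop2).

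The factors of the small subunit were less uniform, with 8 of 11 called. Bysl, needed late in maturation of the small subunit, had the largest difference of the group, 1.10 ± 0.14 (SE), and the helicase Ddx21 the value 0.51 ± 0.06 (SE). Of the 3 that were not called, Ddx10, a helicase of early processing, had a CPM of 35.9, 32.2 and 33.3 in G1 and 33.0, 33.1 and 32.5 in S, and Nob1, the endonuclease that makes the end of the mature small-subunit RNA, had 40.7, 43.3 and 33.3 in G1 and 44.6, 42.0 and 29.2 in S. Their log2 differences were −0.06 ± 0.08 and 0.00 ± 0.08 (SE), with adjusted p of 0.518 and 0.972. Rrp12, an export factor of pre-ribosomes, was measured at only 3.92 to 6.26 CPM in G1 and S, and its estimate of 0.42 ± 0.22 (SE) did not pass the test (adjusted p = 0.106). The 3 genes of RNA polymerase I transcription, Polr1b (a core subunit), Tcof1 (treacle) and Mybbp1a, rose by 0.49, 0.42 and 0.67.

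**Figure D1:**
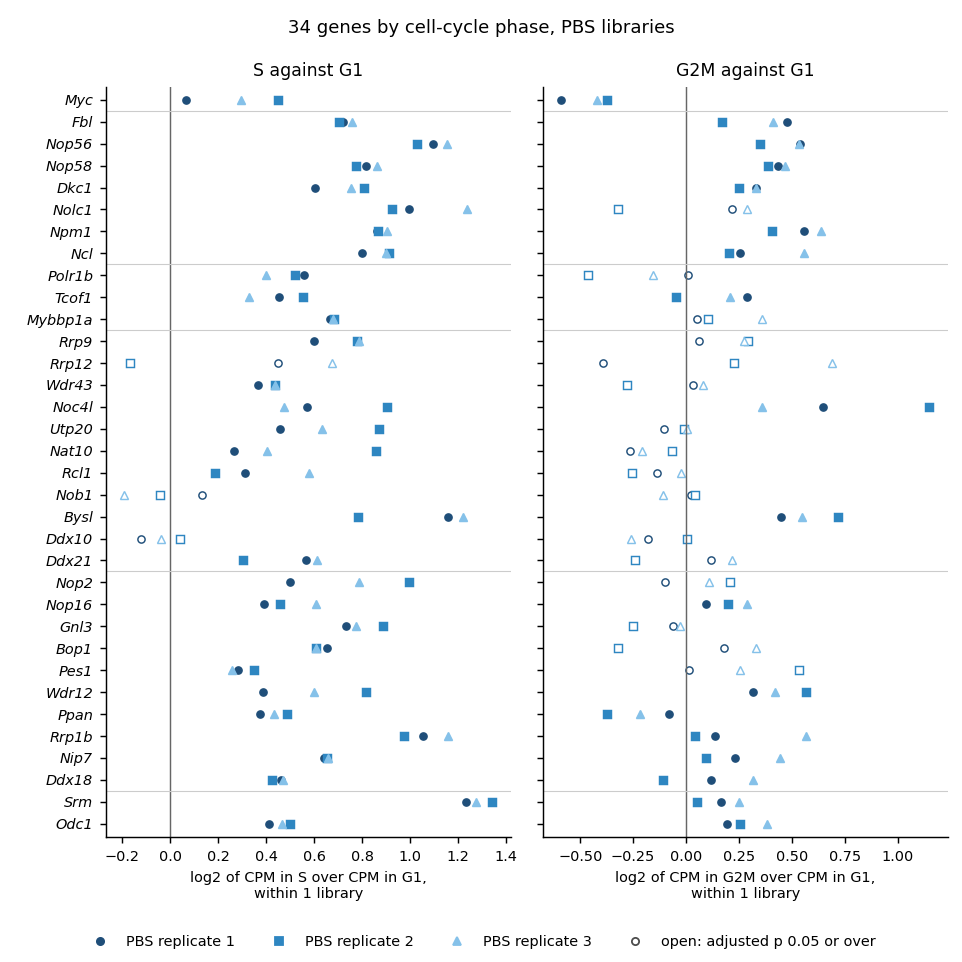
Log2 ratio of the CPM in S (left) or G2M (right) to the CPM in G1 within each PBS library, for the 34 genes grouped by role with Myc at the top and the polyamine genes at the bottom. Each point is 1 library, and open points mark genes whose adjusted p was 0.05 or over. In S phase, points of 31 genes are filled and lie right of 0, led by Srm at a fitted 1.27, and in G2M the filled points of Myc and Ppan lie left of 0.

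The G2M comparison, which shares the G1 sums with the one above, was narrower and mixed. Of the 34 members 16 passed as higher than in G1 and 2 as lower, where 28.5% of all genes were higher and 24.8% lower, and the median member was 0.17 higher. The 2 genes that fell were Myc and Ppan. Myc (chr15:61985391-61990374) had a CPM of 63.4, 64.8 and 57.2 in G1, 66.4, 88.4 and 70.2 in S and 42.1, 50.02 and 42.7 in G2M in PBS replicates 1, 2 and 3. Every G2M value of Myc lay below every G1 and S value. G2M differed from G1 by −0.49 ± 0.07 (SE) with adjusted p = 3.67e-06, while S exceeded G1 by 0.23 ± 0.07 (SE) on the log2 scale with adjusted p = 0.00499. Ppan, a factor of large-subunit maturation, differed by −0.17 ± 0.07 in G2M (adjusted p = 0.0339). Among the genes that rose were Npm1 (0.54), Nop58 (0.43), Nop56 (0.50), Fbl (0.38) and Ncl (0.35), and 6 of the 7 genes of their group were called. Noc4l, a small-subunit factor, had a CPM of 25.8, 24.5 and 19.7 in G1, 38.2, 45.8 and 27.4 in S and 40.3, 54.2 and 25.2 in G2M in PBS replicates 1, 2 and 3. Wdr12 had a CPM of 92.4, 60.9 and 77.9 in G1, 121, 107 and 118 in S and 115, 90.0 and 104 in G2M in PBS replicates 1, 2 and 3. Noc4l and Wdr12 differed from G1 by 0.68 ± 0.10 and 0.40 ± 0.06 (SE) in G2M, and both were higher in each library. Of the other large-subunit and polymerase genes, Gnl3, Polr1b and Nop2 had G2M values of −0.08, −0.11 and 0.02 and were not called.

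Phase and class are linked in these cells, and the same test was therefore run on cells of the MPP4 class alone. The S phase count was then 28 of 34, all higher, with a median of 0.50, and Srm at 1.03, where 35.5% of all genes were called in either direction. In G2M this fit rests on 2 libraries, since PBS replicate 2 held 19 such cells and a sum needed 20. The G2M count was 5, near or under the 17.8% of all genes: Npm1 (0.22) and Noc4l (0.60) rose, and Myc (−0.45), Gnl3 (−0.38) and Srm (−0.52) fell, so that the G2M value of Srm changed sign from the 0.17 of all cells. Fitted without the library as a block, the counts were 18 in S and 3 in G2M, where 21.4% and 19.3% of all genes were called. DESeq2 called 28 and 11, where it called 22.2% and 20.7% of all genes. Median depth was 3202 to 7864 UMIs a cell in G1, 5352 to 13653 in S and 6619 to 15936 in G2M, and the part of depth in these differences was not tested.

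**Figure D2:**
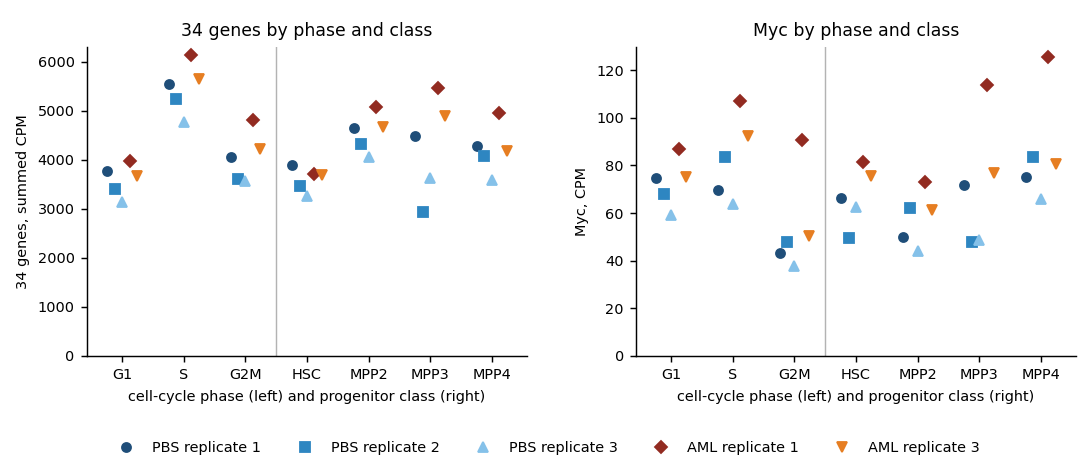
Summed CPM of the 34 genes (left panel) and CPM of Myc (right panel) by cell-cycle phase and by progenitor class, 1 point for each of the 3 PBS and 2 AML libraries. The summed level is highest in S in all 5 libraries. Myc is lower in G2M than in G1 in the 3 PBS libraries and in AML replicate 3 (50.3 against 75.2 CPM). In AML replicate 1 it is 90.8 against 86.9 CPM, on 93 and 24 UMIs.

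The same genes were then compared between the 4 classes of the cell table, the stem cell class (HSC) and the multipotent progenitor classes MPP2, MPP3 and MPP4, again within the PBS libraries. The classes were cut from module scores of these same cells for published subpopulation signatures, whose genes were not compared with the members here, so that a member could have been among them. In MPP2 24 members passed as higher than in HSC and 1 as lower, where 26.1% and 25.5% of the 11793 genes tested did. In MPP3 24 were higher and 0 lower (20.2% and 15.7% of all genes), and in MPP4 11 were higher and 0 lower (14.7% and 13.4%). The median member was higher by 0.36 in MPP2, 0.40 in MPP3 and 0.17 in MPP4, against −0.04, −0.01 and 0.01 for all genes. The 3 comparisons share the HSC sums, and PBS replicate 2 held only 41 MPP3 cells. In that library the summed level of the 34 genes, without TMM scaling, was lower in MPP3 (2936 CPM) than in HSC (3469 CPM), whereas in replicates 1 and 3 it was higher (4473 against 3900.0 and 3626 against 3254 CPM).

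Srm had a CPM of 157, 109.9 and 123 in the HSC class of PBS replicates 1, 2 and 3, 243, 217 and 222 in MPP2, 277, 257 and 241 in MPP3 and 183, 156 and 148 in MPP4. All its MPP2 and MPP3 values were above all HSC values, and the differences were 0.79 ± 0.07 (SE) in MPP2, 0.95 ± 0.07 (SE) in MPP3 and 0.30 ± 0.07 (SE) in MPP4, the largest of any member in MPP2 and MPP3 (adjusted p of 5.4e-10, 6.01e-10 and 0.0013). Nop56 had a CPM of 44.2, 42.9 and 43.2 in the HSC class of PBS replicates 1, 2 and 3, 75.0, 76.0 and 66.8 in MPP2, 72.5, 74.4 and 69.2 in MPP3 and 59.3, 67.4 and 51.2 in MPP4. Dkc1 had a CPM of 79.8, 75.3 and 62.2 in the HSC class of PBS replicates 1, 2 and 3, 115, 107 and 100.1 in MPP2, 114, 98.4 and 99.3 in MPP3 and 102, 102 and 87.4 in MPP4. For both genes every MPP value lay above every HSC value, and the MPP4 difference was 0.42 ± 0.08 (SE) for Nop56 and 0.42 ± 0.07 (SE) for Dkc1. Npm1 had a CPM of 1034, 1223 and 1009 in the HSC class of PBS replicates 1, 2 and 3, 1584, 1936 and 1765 in MPP2, 1395, 1528 and 1571 in MPP3 and 1166, 1506 and 1240.0 in MPP4. Ncl had a CPM of 330.5, 294 and 305 in the HSC class of PBS replicates 1, 2 and 3, 468, 427 and 475 in MPP2, 486, 477 and 464 in MPP3 and 401, 363 and 349.6 in MPP4. Both were lowest in HSC within each library, and the MPP2 difference was 0.69 ± 0.06 (SE) for Npm1 and 0.56 ± 0.06 (SE) for Ncl. Nolc1 had a CPM of 44.1, 38.2 and 36.4 in the HSC class of PBS replicates 1, 2 and 3, 63.5, 49.0 and 59.0 in MPP2, 62.9, 55.2 and 58.0 in MPP3 and 60.4, 46.1 and 44.4 in MPP4. Nop58 had a CPM of 163, 132 and 137 in the HSC class of PBS replicates 1, 2 and 3, 222, 198 and 198 in MPP2, 214, 120.0 and 195 in MPP3 and 181, 155 and 151 in MPP4. Fbl had a CPM of 128, 133 and 87.0 in the HSC class of PBS replicates 1, 2 and 3, 178, 175 and 126 in MPP2, 156, 182 and 118 in MPP3 and 129, 149 and 99.5 in MPP4. Nolc1 passed the test in all 3 classes, Nop58 and Fbl only in MPP2 and MPP3, and the MPP3 value of Nop58 in PBS replicate 2 lay below its HSC value.

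Gnl3 had a CPM of 144, 102 and 166 in the HSC class of PBS replicates 1, 2 and 3, 174, 141 and 190.2 in MPP2, 198, 175 and 233 in MPP3 and 162, 126 and 177 in MPP4. Ppan had a CPM of 76.7, 64.3 and 48.7 in the HSC class of PBS replicates 1, 2 and 3, 92.0, 72.4 and 58.2 in MPP2, 112, 74.4 and 75.9 in MPP3 and 91.3, 76.8 and 58.6 in MPP4. Nip7, a small factor of large-subunit assembly, had a CPM of 89.5, 78.5 and 68.5 in the HSC class of PBS replicates 1, 2 and 3, 119.7, 112 and 109.7 in MPP2, 114, 57.6 and 102 in MPP3 and 94.0, 87.7 and 80.2 in MPP4. All 10 large-subunit genes were called higher in MPP2 and all 10 in MPP3, Gnl3 and Ppan with more in MPP3 (0.52 and 0.55) than in MPP2 (0.28 and 0.24), a difference between classes that was not tested. Tcof1 had a CPM of 48.7, 39.8 and 56.0 in the HSC class of PBS replicates 1, 2 and 3, 62.8, 43.6 and 70.8 in MPP2, 50.2, 45.6 and 76.4 in MPP3 and 69.7, 50.7 and 71.4 in MPP4. Its MPP2 and MPP4 differences, 0.32 and 0.43, passed the test and its MPP3 value of 0.21 did not (adjusted p = 0.158). The small-subunit factors were called in 3 of 11 cases as higher in MPP2 (Noc4l, Bysl and Ddx21), 4 of 11 in MPP3 (with Rcl1) and 0 of 11 in MPP4. Ddx10 was the 1 member that was lower, with 36.6, 37.1 and 34.9 CPM in HSC and 30.4, 27.7 and 30.6 in MPP2 and a difference of −0.27 ± 0.09 (adjusted p = 0.0203).

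Myc had a CPM of 54.9, 45.5 and 57.8 in the HSC class of PBS replicates 1, 2 and 3, 47.7, 65.5 and 49.2 in MPP2, 69.8, 67.2 and 58.9 in MPP3 and 64.4, 79.5 and 64.0 in MPP4. Myc passed the test in MPP4 alone, at 0.31 ± 0.10 (SE) with adjusted p = 0.0171, and its values were −0.06 in MPP2 and 0.31 in MPP3 (adjusted p of 0.62 and 0.0518). In MPP2, Myc was above its HSC level in replicate 2 and below it in replicates 1 and 3.

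Phase moved with class. In the PBS libraries 84.1 to 87.9% of HSC cells were in G1, 55.5 to 58.5% of MPP3 cells, 71.7 to 75.9% of MPP4 cells and 6.06 to 12.9% of MPP2 cells. The part of phase in these differences was not tested beyond the next comparison. With G1 cells alone MPP2 rests on 2 libraries, since PBS replicate 2 held 16 such cells, fewer than the 20 a sum needed. The counts were then 3 in MPP2 (Srm, Nop16 and Nip7), 5 in MPP3 (Srm, Ppan, Gnl3, Nop16 and Odc1) and 3 in MPP4 (Dkc1, Nop56 and Tcof1), all higher, and the medians over the members were 0.28, 0.11 and 0.15. Of all genes 3.25%, 15.0% and 19.5% were called in these fits. The MPP3 count thus stands near the share of all genes and the MPP4 count under it. The MPP3 median of 0.11 is over TMM-scaled estimates. Without TMM scaling, the summed level of the members in G1 cells was lower in MPP3 than in HSC in each PBS library. It was 3301 against 3680, 1315 against 3310 (on 24 MPP3 cells) and 2472 against 3061 CPM in PBS replicates 1, 2 and 3. In MPP4 it was higher than in HSC in each, at 3887, 3682 and 3267 CPM. In MPP2 it was higher in replicates 1 and 3, at 4342 and 3596 CPM. Without the library as a block the counts were 7, 6 and 0, where 22.8%, 14.5% and 8.94% of all genes were called, and these too are near or under the share. DESeq2 gave 19, 17 and 10, where 23.1%, 16.8% and 11.6% of all genes were called. The DESeq2 shares are over 20768 genes with no filter on low counts, against 11793 for edgeR, and are therefore over more genes of few counts.

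**Figure D3:**
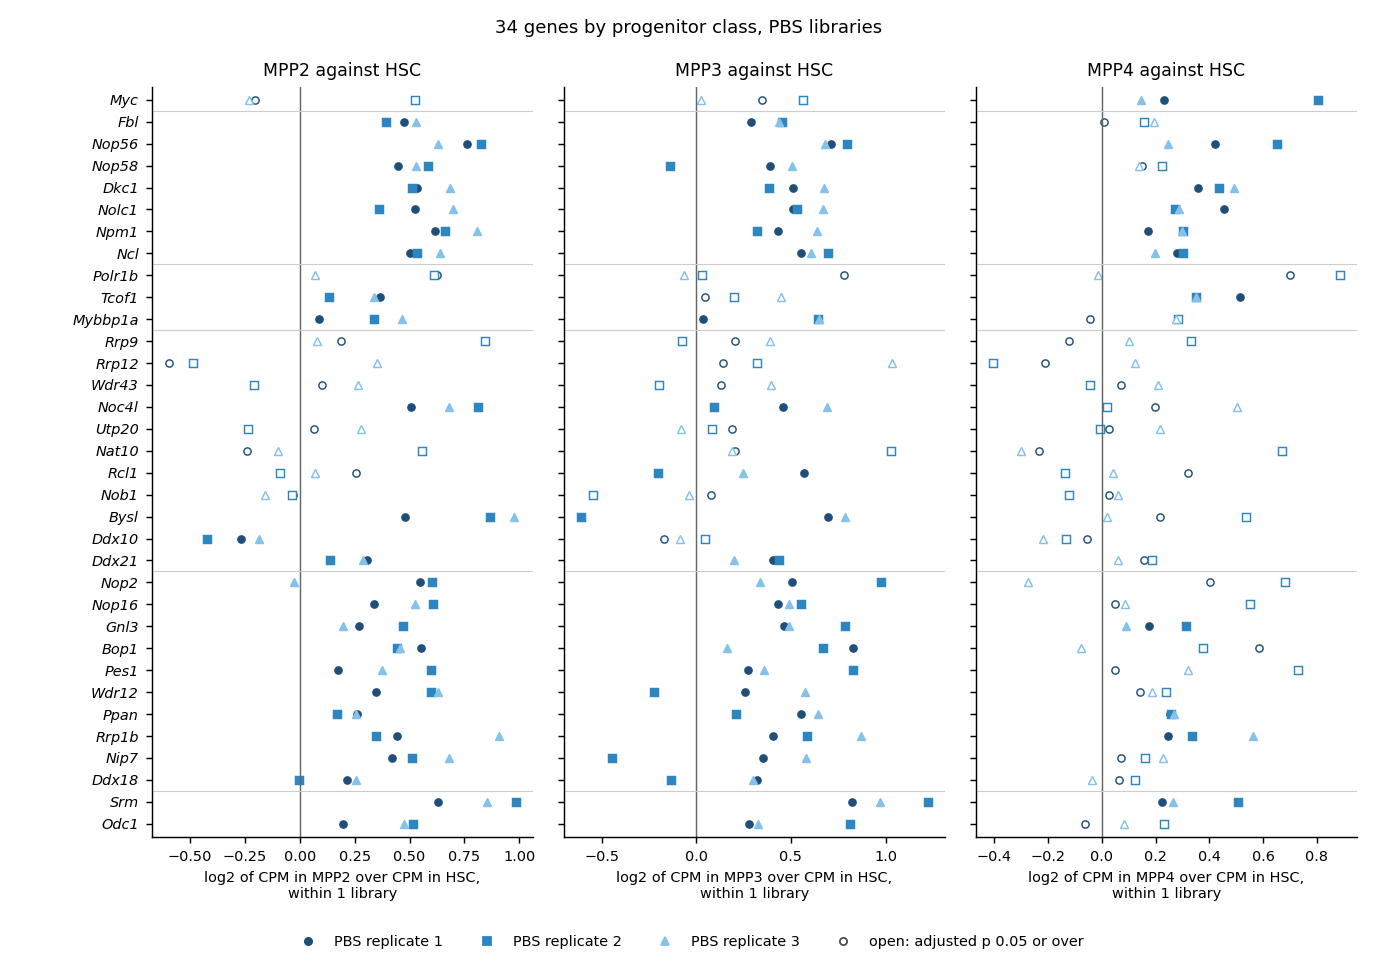
Log2 ratio of the CPM in MPP2, MPP3 and MPP4 to the CPM in HSC within each PBS library, for the 34 genes grouped by role. Each point is 1 library, open points mark genes whose adjusted p was 0.05 or over, and the horizontal scales differ. Filled points are the rule in the snoRNP group (Fbl to Ncl) and the large-subunit group (Nop2 to Ddx18) of the MPP2 and MPP3 panels, and MPP4 has 11 genes with filled points.

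The lists around the members moved in part with them, and their counts are to be read against the shares of all genes given above for each comparison. Of 101 other ribosome biogenesis genes, 73 rose and 2 fell in S, with the exosome subunit Exosc8 (1.34), Nop10 (0.92), Nhp2 (1.20) and Snu13 (1.05) of lowest p, the last 3 being snoRNP proteins. In G2M 58 rose and 3 fell. In MPP2, MPP3 and MPP4 against HSC 53, 43 and 19 rose and 3, 2 and 1 fell, the 19 of MPP4 being near the 14.7% of all genes. Of 30 other MYC targets, all 30 rose in S (median 0.95), led by the nuclear transport GTPase Ran (1.36) and the mitochondrial chaperones Hspe1 (1.16) and Hspd1 (1.15), and 29, 27 and 21 rose in MPP2, MPP3 and MPP4. Of 8 other polyamine genes, 4 rose in S, among them spermine synthase (Sms, 0.52), and 2 fell, near the 26.1% of all genes, among them the acetyltransferase Sat1 (−0.61). The Myc network, 12 tested genes of Myc paralogs, partners, antagonists and regulators, had 1 gene that rose and 4 that fell in S, near or under the shares of all genes. Mxd3, a Max partner, rose by 4.35 in S and 6.58 in G2M, whereas the Myc paralog Mycn fell by 0.83 in S, 1.08 in G2M and 1.13, 1.74 and 1.01 in MPP2, MPP3 and MPP4. These lists were assembled with earlier results of these data known.

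By cluster the levels are given as a description, since clusters were made from all genes of these cells. Clusters 0 to 5 were present with at least 20 cells in each PBS library. The summed level of the 34 genes in PBS libraries was 4545 ± 279.9 CPM (SD, n = 3) in cluster 4, 4505 ± 308 in cluster 3, 4477 ± 357 in cluster 1, 3879 ± 397 in cluster 2, 3774 ± 324 in cluster 0 and 2967 ± 210.4 in cluster 5. Clusters 4, 3 and 1 did not differ beyond their spread, nor did clusters 2 and 0. Of the 34 genes 26 were lowest in cluster 5, and 13 were highest in cluster 1, 8 in cluster 4 and 7 in cluster 3. Srm spanned the widest range, with 57.6, 88.1 and 51.5 CPM in cluster 5 of PBS replicates 1, 2 and 3 and 313, 249 and 257 in cluster 4. Myc had 26.0, 13.9 and 20.6 CPM in cluster 5, on 14, 3 and 8 UMIs, and 80.8, 74.9 and 73.7 in cluster 1. Both cluster 5 levels were below those of G1 and G2M cells of the same libraries. Cluster 5 held 150, 22 and 98 cells of the PBS libraries, of which 0, 0 and 3.06% were in S phase, and its summed LSK markers were 705 to 845 CPM against 763 to 873 in cluster 0. Odc1 (1.13), Nob1 (1.18), Nop2 (1.22) and Nop58 (1.22) varied least, by the ratio of the highest to the lowest cluster mean.

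Clusters 6, 7 and 8 reached 20 cells only in PBS replicates 1 and 3 and AML replicate 3. In cluster 6, where 6 B and plasma cell markers summed to 169400, 86430 and 93910 CPM in these libraries, the 34 genes summed to 746, 683 and 1066 CPM. In cluster 7, in which erythroid markers summed to 460.4, 2139 and 22960 CPM, they summed to 7161, 4950.0 and 5616 CPM. Neither marker list kept to its cluster: erythroid markers summed to 18890 CPM in cluster 6 of PBS replicate 1 and to 467 CPM in cluster 0 of PBS replicate 3, and B and plasma cell markers to 1999 CPM in cluster 7 of PBS replicate 3. The ratio of the summed level in cluster 3 to that in cluster 0 was 1.17, 1.22 and 1.20 in PBS replicates 1, 2 and 3, and 1.18, 1.27 and 1.21 after the cells were thinned to 2000 UMIs each, which left out 125 cells of PBS replicate 1 and 80 of PBS replicate 3 that held fewer.

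**Figure D4:**
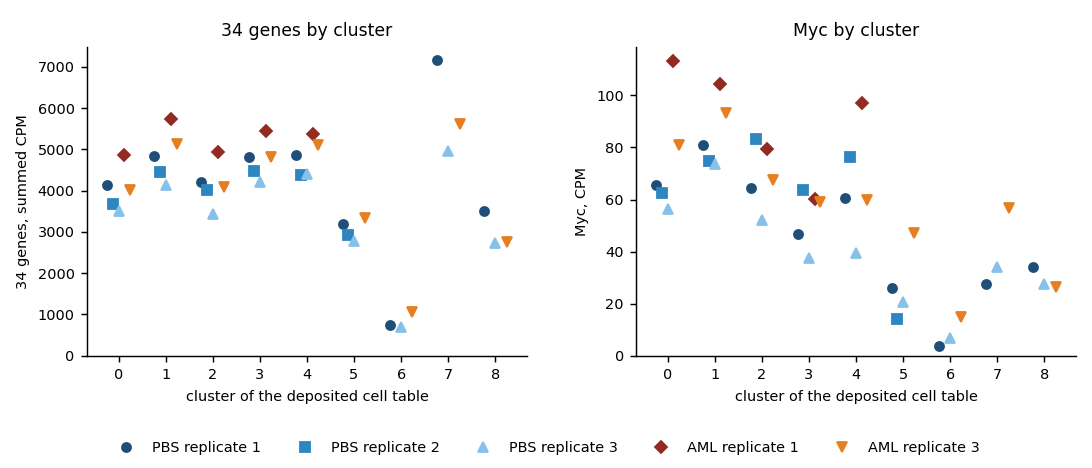
Summed CPM of the 34 genes (left panel) and CPM of Myc (right panel) in the clusters of the cell table, 1 point per library with at least 20 cells in the cluster. Cluster 6 lies lowest for the summed level, at 683 to 1066 CPM, cluster 5 is the lowest of clusters 0 to 5 in every library that has it, and Myc reaches its highest PBS level, 83.2 CPM, in cluster 2 of replicate 2.

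Leukemia was compared with PBS over all LSK cells. None of the 34 members passed the test, where 0.16% of 14364 genes did. Of the members 6 had an unadjusted p under 0.05 by edgeR, where 10.5% of all genes did, and 5 by DESeq2, where 5.67% did. DESeq2 also called 0 members, where it called 0.333% of all genes. The estimates leaned upward, with 26 of 34 positive and a median of 0.27 against −0.03 for all genes. The 2 AML libraries were both above all 3 PBS libraries in 17 members, where 14.6% of all genes were higher without overlap. They were both below in 0 members, for which the share of all genes was not computed. Bulk sums of this kind cannot tell a change in each cell from a change in the mixture of cells.

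The members of lowest p were Mybbp1a, Tcof1, Ddx21 and Wdr43. Mybbp1a (chr11:72441355-72451768) had a CPM of 32.6, 30.1 and 48.8 in PBS replicates 1, 2 and 3 and of 95.5 and 49.4 in AML replicates 1 and 3, an estimated difference of 0.92 ± 0.29 (SE) on the log2 scale with adjusted p = 0.297. Tcof1, the upstream factor treacle of RNA polymerase I, had a CPM of 63.9, 46.5 and 71.3 in PBS replicates 1, 2 and 3 and of 130.1 and 83.3 in AML replicates 1 and 3, an estimated difference of 0.80 ± 0.26 (SE) on the log2 scale with adjusted p = 0.31. In both genes AML replicate 1 was far above the other 4 libraries, and AML replicate 3 stood next above PBS replicate 3. Ddx21 (chr10:62580251-62602281), which links RNA polymerase I transcription with processing, had a CPM of 144, 155 and 187 in PBS replicates 1, 2 and 3 and of 387 and 209 in AML replicates 1 and 3, an estimated difference of 0.87 ± 0.28 (SE) on the log2 scale with adjusted p = 0.31. Wdr43 (chr17:71615895-71659031), a factor of the small-subunit processome, had a CPM of 117, 98.9 and 93.3 in PBS replicates 1, 2 and 3 and of 212 and 122 in AML replicates 1 and 3, an estimated difference of 0.68 ± 0.27 (SE) on the log2 scale with adjusted p = 0.406. The 2 groups did not overlap, and again 1 library, AML replicate 1, carried most of the difference. Myc had a CPM of 59.9, 68.4 and 58.4 in PBS replicates 1, 2 and 3 and of 96.0 and 70.8 in AML replicates 1 and 3, an estimated difference of 0.41 ± 0.23 (SE) on the log2 scale with adjusted p = 0.538. Polr1b and Ncl also had an unadjusted p under 0.05, at 0.56 and 0.64. At the other end, the lowest estimates were those of Rcl1 (−0.25), Noc4l (−0.06) and Npm1 (−0.04). AML replicate 1 was the lowest of the 5 libraries for 4 members, Rcl1 at 26.8 CPM, Nop16 at 72.3 CPM, Nip7 at 85.7 CPM and Srm at 155 CPM.

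AML replicate 1 set the size of these values. Without it, the estimates were 0.42 for Mybbp1a, 0.47 for Tcof1, 0.38 for Ddx21, 0.25 for Wdr43 and 0.20 for Myc, and the median member was 0.19. Without AML replicate 3, Mybbp1a (1.36, adjusted p = 0.0306) and Ddx21 (1.26, adjusted p = 0.0336) were called. That fit holds 1 AML library, takes its spread from the PBS libraries alone and called 419 genes, or 2.95%, against 23 with both. AML replicate 1 held 14.7% G1 cells, AML replicate 3 49.0% and the PBS libraries 55.9 to 58.2%. All libraries were then given the same mixture over 12 strata of class and phase. The estimates were 0.73, 0.53, 0.68, 0.59 and 0.36 for the same 5 genes, and the median was 0.13. This fit called 0 of 34 members and 0 of all 14209 genes, so that its 0 is no result about the members. No minimum of cells was set there, and 10 of the 60 strata over the 5 libraries held fewer than 20 cells. These made up 16.7% of the mixture in AML replicate 1, most of it from 13 HSC cells in G1 weighted 7.52 times, and 18.1% in PBS replicate 2, where 2 MPP3 cells in G2M were weighted 19.9 times. Ribosomal protein genes took 27.6 and 29.0% of the UMIs in AML replicates 1 and 3 and 25.7 to 31.7% in the PBS libraries. Among markers of other cells, those of monocytes and macrophages summed to 33.4 and 47.7 CPM in AML replicates 1 and 3 and to 17.2 to 23.3 CPM in PBS, with 5 and 6 of 6 genes above 0. Those of T and NK cells summed to 182.5 and 176.2 CPM against 147.5 to 173.3 CPM, with 2 and 6 of 6 genes above 0, and the other 4 lists overlapped between the groups. Their part in the values of the members was not tested.

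**Figure D5:**
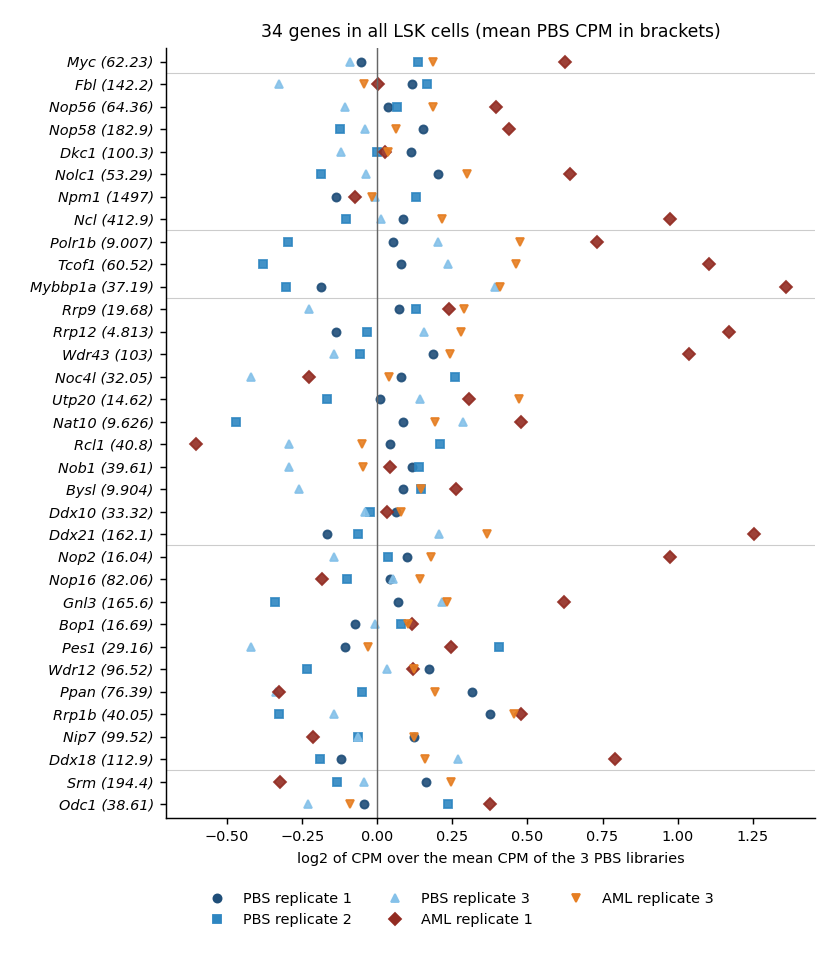
Log2 ratio of the CPM of each library to the mean CPM of the 3 PBS libraries over all LSK cells, for the 34 genes grouped by role, with the mean PBS CPM in brackets. AML replicate 1 lies farthest right for Mybbp1a, Ddx21, Rrp12, Tcof1 and Wdr43, and it lies left of the other 4 libraries for Rcl1, Nip7, Nop16 and Srm. For each of these 9 genes AML replicate 3 lies nearer to 0.

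Within classes and phases the result was alike, with 0 members called in each. The share of all genes called was 0.178% in HSC, 0.0399% in MPP2, 0.0486% in MPP3 and 0.0325% in MPP4, and 0.139% in G1, 0.264% in S and 0.236% in G2M. DESeq2 called 0 members in all 7, where it called from 0 (HSC) to 0.201% (G2M) of all genes. Unadjusted p by edgeR was under 0.05 for 1, 5, 5 and 1 members in the 4 classes and for 1, 5 and 10 in the 3 phases. Over all genes p was under 0.05 for 4.16%, 7.56%, 7.39% and 5.93% in the classes and 5.32%, 7.88% and 10.3% in the phases, so that the counts in HSC, MPP4 and G1 lie under the share of all genes. The median member was −0.04 in HSC, 0.15 in MPP2, 0.31 in MPP3 and 0.05 in MPP4, and 0.07 in G1, 0.15 in S and 0.22 in G2M. Without AML replicate 1 these medians were 0.05, 0.17, 0.29 and 0.025 in the classes and 0.09, 0.18 and 0.25 in the phases.

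In MPP2, MPP3, S and G2M, which are sums of partly the same cells, the 4 members of lowest p were again Tcof1, Ddx21, Mybbp1a and Wdr43. Their estimates lay between 0.65 and 1.06 on the log2 scale and their adjusted p between 0.225 and 0.563. Without AML replicate 1 the estimates of these 4 genes lay between 0.25 and 0.59 in those classes and phases, and between 0.15 and 0.40 in MPP4 and G1.

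The values below give in brackets the estimate on the log2 scale and its adjusted p. In MPP2 Tcof1 measured 61.9, 43.0 and 68.5 CPM in PBS replicates 1, 2 and 3 against 134 and 86.7 CPM in AML replicates 1 and 3 (0.89, adjusted p = 0.432). In MPP2 Ddx21 measured 146, 149.5 and 191 CPM in PBS replicates 1, 2 and 3 against 384 and 211 CPM in AML replicates 1 and 3 (0.86, adjusted p = 0.468). In MPP2 Wdr43 measured 113, 89.3 and 90.3 CPM in PBS replicates 1, 2 and 3 against 209.9 and 118 CPM in AML replicates 1 and 3 (0.72, adjusted p = 0.556). In these 3 genes both AML libraries lay above all PBS libraries, AML replicate 1 by the most. In MPP2 Mybbp1a measured 32.5, 30.6 and 49.4 CPM in PBS replicates 1, 2 and 3 against 79.5 and 50.01 CPM in AML replicates 1 and 3 (0.73, adjusted p = 0.563). In MPP3 Mybbp1a measured 28.3, 35.4 and 51.0 CPM in PBS replicates 1, 2 and 3 against 120.5 and 49.8 CPM in AML replicates 1 and 3 (1.06, adjusted p = 0.395). In MPP3 Tcof1 measured 44.7, 42.0 and 67.2 CPM in PBS replicates 1, 2 and 3 against 131 and 69.5 CPM in AML replicates 1 and 3 (0.88, adjusted p = 0.489). AML replicate 3 lay within the PBS range for Mybbp1a in MPP3, where the estimate was 1.06 with and 0.39 without AML replicate 1. In MPP3 Ddx21 measured 141, 172 and 164 CPM in PBS replicates 1, 2 and 3 against 378 and 197 CPM in AML replicates 1 and 3 (0.84, adjusted p = 0.499). In MPP3 Wdr43 measured 104, 84.0 and 89.8 CPM in PBS replicates 1, 2 and 3 against 208 and 117 CPM in AML replicates 1 and 3 (0.77, adjusted p = 0.555). Apart from Mybbp1a, these genes did not overlap between the groups in MPP3.

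In MPP4 Ddx21 measured 148, 174 and 191 CPM in PBS replicates 1, 2 and 3 against 334 and 211 CPM in AML replicates 1 and 3 (0.63, adjusted p = 0.736). In MPP4 Tcof1 measured 77.2, 56.0 and 80.7 CPM in PBS replicates 1, 2 and 3 against 96.9 and 94.3 CPM in AML replicates 1 and 3 (0.41, adjusted p = 0.883). Both genes were above all PBS libraries in both AML libraries. In MPP4 Mybbp1a measured 33.4, 33.1 and 50.5 CPM in PBS replicates 1, 2 and 3 against 67.3 and 46.8 CPM in AML replicates 1 and 3 (0.43, adjusted p = 0.894). In MPP4 Ncl measured 445, 401 and 395 CPM in PBS replicates 1, 2 and 3 against 670.0 and 451 CPM in AML replicates 1 and 3 (0.42, adjusted p = 0.894). In the HSC class AML replicate 1 held only 23 cells, and a CPM there stands on few UMIs. In HSC Utp20 measured 16.5, 16.4 and 17.1 CPM in PBS replicates 1, 2 and 3 against 54.1 and 25.3 CPM in AML replicates 1 and 3 (0.72, adjusted p = 0.992). In HSC Polr1b measured 7.23, 5.68 and 12.2 CPM in PBS replicates 1, 2 and 3 against 27.1 and 14.3 CPM in AML replicates 1 and 3 (0.81, adjusted p = 0.992). Neither gene overlapped between the groups in HSC. In HSC Fbl measured 155, 161 and 108 CPM in PBS replicates 1, 2 and 3 against 94.7 and 100.3 CPM in AML replicates 1 and 3 (-0.50, adjusted p = 0.992). In HSC Nob1 measured 49.6, 55.0 and 39.9 CPM in PBS replicates 1, 2 and 3 against 40.6 and 35.4 CPM in AML replicates 1 and 3 (-0.42, adjusted p = 0.992). Fbl was lower in both AML libraries than in all PBS libraries, and Nob1 overlapped.

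In S Ddx21 measured 175, 179.5 and 228 CPM in PBS replicates 1, 2 and 3 against 461 and 259 CPM in AML replicates 1 and 3 (0.87, adjusted p = 0.336). In S Tcof1 measured 71.4, 58.5 and 76.4 CPM in PBS replicates 1, 2 and 3 against 144 and 96.0 CPM in AML replicates 1 and 3 (0.76, adjusted p = 0.381). In S Mybbp1a measured 41.9, 39.2 and 59.7 CPM in PBS replicates 1, 2 and 3 against 134 and 57.8 CPM in AML replicates 1 and 3 (0.92, adjusted p = 0.385). Of these, Ddx21 and Tcof1 did not overlap between the groups and Mybbp1a did. In S Wdr43 measured 132, 122 and 108 CPM in PBS replicates 1, 2 and 3 against 244 and 143 CPM in AML replicates 1 and 3 (0.65, adjusted p = 0.555). In G2M Tcof1 measured 62.9, 38.7 and 68.5 CPM in PBS replicates 1, 2 and 3 against 138 and 84.5 CPM in AML replicates 1 and 3 (0.93, adjusted p = 0.225). In G2M Ddx21 measured 127, 124 and 169 CPM in PBS replicates 1, 2 and 3 against 347 and 184 CPM in AML replicates 1 and 3 (0.91, adjusted p = 0.258). Neither gene overlapped between the groups in G2M. In G2M Mybbp1a measured 27.0, 26.3 and 46.6 CPM in PBS replicates 1, 2 and 3 against 71.8 and 50.5 CPM in AML replicates 1 and 3 (0.83, adjusted p = 0.309). In G2M Wdr43 measured 103, 74.8 and 82.0 CPM in PBS replicates 1, 2 and 3 against 192 and 108 CPM in AML replicates 1 and 3 (0.76, adjusted p = 0.367). In G2M Myc measured 40.4, 48.9 and 40.6 CPM in PBS replicates 1, 2 and 3 against 89.1 and 49.9 CPM in AML replicates 1 and 3 (0.63, adjusted p = 0.447). Myc, which was lower in G2M than in G1 in the PBS libraries, did not overlap between the groups in G2M, and its estimate was 0.21 without AML replicate 1.

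In G1 Ddx21 measured 134, 168 and 172 CPM in PBS replicates 1, 2 and 3 against 296 and 189 CPM in AML replicates 1 and 3 (0.57, adjusted p = 0.93). In G1 Mybbp1a measured 30.01, 28.1 and 43.1 CPM in PBS replicates 1, 2 and 3 against 76.5 and 41.5 CPM in AML replicates 1 and 3 (0.56, adjusted p = 0.93). Both had their smallest estimate of the 3 phases in G1, a difference between phases that was not tested. In G1 Utp20 measured 14.6, 11.7 and 15.4 CPM in PBS replicates 1, 2 and 3 against 20.9 and 18.9 CPM in AML replicates 1 and 3 (0.45, adjusted p = 0.93). In G1 Nop56 measured 49.5, 54.8 and 44.8 CPM in PBS replicates 1, 2 and 3 against 97.4 and 55.0 CPM in AML replicates 1 and 3 (0.43, adjusted p = 0.93). For AML replicate 1, these G1 values of Ddx21, Mybbp1a, Utp20 and Nop56 stand on only 85, 22, 6 and 28 UMIs.

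A difference of the AML effect between the 4 classes was tested by the class-by-treatment terms together. None of the members was called, where 0.872% of 12734 genes were, and 6 members had p under 0.05 before adjustment, where 10.9% of all genes did. The lowest were Nop16, Npm1, Fbl and Srm, with adjusted p of 0.227, 0.228, 0.246 and 0.25, and without AML replicate 1 again 0 were called. Their AML estimates in HSC were −0.11, −0.36, −0.50 and −0.35, in MPP2 −0.09, −0.19, −0.14 and −0.17, in MPP3 0.12, 0.07, −0.03 and 0.00, and in MPP4 −0.16, −0.12, 0.04 and −0.21. Of the lists around the members none had a called gene over all LSK cells, with medians of 0.12 over the 101 other ribosome biogenesis genes, 0.04 over the 30 other MYC targets, 0.00 over the 13 genes of the Myc network and −0.09 over the 8 other polyamine genes, and 10, 3, 3 and 1 of these genes had p under 0.05 by edgeR before adjustment, where 10.5% of all genes did.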

How the data were processed

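Droplet libraries of LSK cells from 3 PBS and 3 AML samples were profiled with Chromium GEM V3 chemistry. Per the submitters' processing notes the tools were Cell Ranger 7.0.1, R 4.2.2 and Seurat 4.3.0 and the build GRCm38 (mm10). The deposited matrices hold raw UMI counts per gene and cell barcode, made by the authors with no normalization. The cell table deposited by the authors gives class, cluster and phase for 16822 of 48510 barcodes, with the mitochondrial percent of each, at most 5.23. Its other 19 columns were not used. The UMI count of all 16822 kept cells in the table equalled that in the matrices. Libraries held 1945659 to 32123508 kept UMIs, and 3 against 3 libraries were planned for AML before the table was found to hold no cell of AML replicate 2, so that 3 against 2 were tested.

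Counts were summed by library and by class, phase or cluster (at least 20 cells), with Python 3.11.15, pandas 2.3.3 and numpy 2.4.6. Sums were tested with edgeR 4.0.16 (TMM scaling, filterByExpr, quasi-likelihood test, in R 4.3.3) over all genes with Benjamini-Hochberg adjustment, and a gene was called at an adjusted p under 0.05. AML comparisons with 1 sum per library were fitted without a block. The class-by-treatment test, and the class and phase comparisons within PBS libraries, had the library as a block, since the sums of 1 library come from 1 sample. CPM for tests were TMM scaled, those for clusters and summed levels were not. For AML against PBS, library numbers were taken as names of samples and not as pairs. Same-numbered libraries had correlations of their deviations from the group means of -0.0574 and -0.0547. With only AML replicates 1 and 3, the AML deviations mirror each other, so that these values cannot decide on pairing. Alternatives were DESeq2 1.42.0, its size factors, no filter, each library left out, the block, equal composition, and G1 or MPP4 cells alone. The code was tested on simulated data. The labels do not say whether each library came from 1 animal, so p-values measure only the spread between libraries.

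The members and all lists were chosen with earlier results of these data known. Values in each library are given for Myc and for called members, at most the 8 of lowest p, or the 4 of lowest p where none was called. Other lists name at most 4 called genes of lowest p. No doublet caller was run here. Positions of genes are from GENCODE M21 on GRCm38, and promoter windows from RefSeq on GRCm38.p6.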

Additional observations from a re-analysis of the deposited data

Results flagged for a closer look

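AML replicate 2, a library of which the cell table holds no cell, was examined on its own because it is outside every comparison above. With an own filter of at least 1000 genes and at most 10% mitochondrial UMIs, 106 of its 17055 barcodes were kept, with 306059 UMIs. In these, 21 of the 34 members were above every PBS library and 9 were below every PBS library, where 37.6% of all genes with at least 50 UMIs were above and 43.3% below, so that most genes of this library lay outside the PBS range. The members summed to 4261 CPM, within the 3850.0 to 4488 CPM of the PBS libraries under the same filter, and Myc was at 98.0 CPM, on 30 UMIs, against 57.1 to 69.4 CPM. These values come from 1 library with no replicate, and 2472 of its barcodes also occur in PBS replicate 3. The part of free RNA or shared barcodes in them was not tested.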

How the results depend on the processing

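For AML against PBS, the count of called members was 0 and became 2 over all LSK cells and 2 in S without AML replicate 3, 1 in G2M without it, and 1 over all LSK cells with no filter on low counts, where 1.82% of all genes were called. Without AML replicate 3 the lone AML library is assumed to vary like PBS, and 2.95%, 1.59% and 1.19% of all genes were called. It ranged from 0 to 2, 0 to 2 and 0 to 1 in these 3 comparisons when each library was left out in turn. The class-by-treatment count was 2 with no filter, where 2.34% of all genes were called against 0.872% with it. With the replicate block the AML counts were 0 over all LSK cells and in each class and phase. The class-by-treatment test, which has the library as a block, was not run with it. Over all genes, 23 were called for AML, 91 with the replicate block and 72 by DESeq2. Within PBS libraries, without the replicate block the counts were 7 in MPP2, 6 in MPP3, 0 in MPP4, 3 in G2M and 18 in S. With G1 cells alone they were 3 in MPP2, 5 in MPP3 and 3 in MPP4, and with MPP4 cells alone 5 in G2M. DESeq2 gave 11 in G2M. Leaving out each library in turn gave 13 to 21 in MPP3 (15 without PBS replicate 1 and 13 without PBS replicate 3, where 25.9% and 21.9% of all genes were called) and 11 to 19 in G2M (11 without PBS replicate 3, under the 43.1% of all genes called). Myc in MPP2 against HSC, at −0.06, turned to 0.0519 without PBS replicate 1, 0.032 without PBS replicate 3 (−0.195 without PBS replicate 2), 0.0189 without the replicate block and 0.00207 in G1 cells, none of them called. Myc in MPP3 was called with no filter (0.28, adjusted p = 0.0399, edgeR). The cause of these changes was not tested. Over Myc and at most 8 called members in each comparison, 374 values kept direction and side of the threshold, 50 lost the call and 4, the Myc values above, turned direction. Other members were not counted, among them Srm in G2M, which turned from 0.17 to a called −0.52 in MPP4 cells (edgeR). Also, 107 of 125 values, the counts of called members and a ratio of cluster levels, were labelled unchanged (within 1.5 times for the counts). An AML count of 0 that stayed 0 is among the 107, so that for AML this tally was largely fixed in advance. After the data were seen, AML replicate 2 was added by an own barcode filter: 0 members were called over 6 libraries (median 0.18), where 0.548% of all genes were. With the same filter 0 were called over 5 libraries (median 0.21), where 0.135% of all genes were. AML replicate 1 had 1945659 UMIs, the fewest of the 5 libraries.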
